A study of Rattus norvegicus with 6 samples.

Results

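The 3 regions described here hold immune gene families that lie in tight clusters of related copies. They are the major histocompatibility complex (MHC) on chromosome 20 from base 1000000 to 6000000, the natural killer receptor complex (NKC) on chromosome 4 from base 161000000 to 165000000, and the T cell receptor alpha region (TRA) on chromosome 15 from base 29000000 to 33000000, all in the rn6 build. Every annotated transcript that lies wholly within a region was taken, which gave 866 of the 64526 transcripts of the deposited annotation. Of these, 720 are in the MHC, 105 in the NKC and 41 in the TRA region, and they form 314 of 24746 loci (225, 60 and 29). A locus is a group of overlapping transcripts that the assembly joined under 1 identifier, such as STRG.55712. Position alone defined the members, so no measured value was used to choose them.

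PolyA RNA of whole brain was sequenced from 6 naive male rats of 2 inbred strains, 3 of BN-Lx/CubPrin (BNLx) and 3 of SHR/OlaIpcvPrin (SHR, the spontaneously hypertensive rat). Neither strain was treated, and the age of the rats is not given in the sources used here. Each library is 1 rat, so the replicates are separate animals. Total expected counts, the number of reads assigned to features, ranged from 11747048 to 41333078 a library. Earlier results of these data placed BNLx replicate 3 and SHR replicate 1 at a distance from the remaining animals of each strain. Both were therefore also left out together. Levels are given as CPM, counts per 1000000 counts of the library.

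The MHC encodes class I molecules, which show peptides from inside the cell to cytotoxic T cells, and class II molecules, which show peptides taken up from outside to helper T cells. In the rat the complex is called RT1, and genes of complement, heat shock and general cell functions lie between its class I and class II genes. The NKC encodes lectin-like receptors of natural killer and myeloid cells, and the TRA region holds the gene segments that T cells join to build the alpha chain of their receptor. Brain tissue holds few lymphocytes, and microglia are its main resident immune cells. In whole tissue, fewer cells of a type and less RNA per cell cannot be told apart.

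Promoters are shown for some genes described below, the neighbouring class I genes RT1-A1 and RT1-A2 and the class II alpha chains RT1-Ba and RT1-Da. At the locus level none of these genes was called as different between strains in the main fit. The promoters come from RefSeq in the GRCr8 build, not rn6, and cover 250 bases before to 50 after each start. RefSeq held a promoter for 105 of the 228 gene names in the 3 regions. Capitals mark 3 motifs, searched on both strands: the Y box CTGATTGG (read as CCAATCAG on the other strand), the kappaB site GGGATTCCC and the interferon response motif TTTCACTTC.
RT1-A1, chr20:4906959-4907258, plus strand: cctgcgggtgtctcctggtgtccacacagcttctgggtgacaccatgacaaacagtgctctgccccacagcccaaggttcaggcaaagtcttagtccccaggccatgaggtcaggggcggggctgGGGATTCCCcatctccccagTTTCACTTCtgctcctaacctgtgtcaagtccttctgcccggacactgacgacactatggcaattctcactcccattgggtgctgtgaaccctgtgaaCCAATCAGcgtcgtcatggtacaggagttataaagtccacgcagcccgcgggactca
RT1-A2, chr20:4872621-4872920, plus strand: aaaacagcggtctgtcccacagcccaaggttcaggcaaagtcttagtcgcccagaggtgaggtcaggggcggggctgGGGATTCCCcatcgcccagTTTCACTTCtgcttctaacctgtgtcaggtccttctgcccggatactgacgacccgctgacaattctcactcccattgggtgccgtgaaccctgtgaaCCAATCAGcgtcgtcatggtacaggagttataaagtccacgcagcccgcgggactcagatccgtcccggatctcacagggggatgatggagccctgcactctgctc
RT1-Ba, chr20:4576807-4577106, plus strand: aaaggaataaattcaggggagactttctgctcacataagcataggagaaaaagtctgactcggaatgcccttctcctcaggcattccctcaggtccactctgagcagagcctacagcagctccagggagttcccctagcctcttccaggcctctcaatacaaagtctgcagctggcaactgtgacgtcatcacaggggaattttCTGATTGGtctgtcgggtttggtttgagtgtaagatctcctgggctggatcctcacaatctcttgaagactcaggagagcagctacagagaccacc
RT1-Da, chr20:4515165-4515464, plus strand: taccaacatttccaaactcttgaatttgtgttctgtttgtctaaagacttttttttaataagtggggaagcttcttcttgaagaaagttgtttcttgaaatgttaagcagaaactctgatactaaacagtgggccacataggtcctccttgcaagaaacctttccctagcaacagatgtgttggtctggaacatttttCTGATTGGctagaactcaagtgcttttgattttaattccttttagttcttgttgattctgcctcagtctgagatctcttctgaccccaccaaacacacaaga
The Y box letters stood in all 4 of these and in those of the class II beta chains RT1-Bb and RT1-Db1, against 3.50% of 33469 promoters. Both class I promoters held the kappaB letters, which 0.365% of all promoters held, and the interferon letters, which 0.469% held. The RT1-A1 and RT1-A2 windows matched at 182 of 251 positions (72.5%) without gaps once shifted by 49 bases. The class II promoters matched each other at no more than 35.4%. These matches describe letters in a window and are no measure of factor binding.

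Strain differences were read from a fit of edgeR's quasi-likelihood test over all loci that reached 50 counts in 2 or more animals of either strain. Of the 314 loci, 125 passed that minimum and 189 did not. Of the 125, 10 passed an adjusted p of 0.05, with SHR above BNLx in 3 and below it in 7. Over all 14471 loci tested the share that passed was 1.02%, made up of 0.504% with SHR above and 0.511% with SHR below. DESeq2 called 13 of the member loci, where it called 3.76% of all loci. By region the counts were 4 of 108 in the MHC (3.70%), 2 of 9 in the NKC (22.2%) and 4 of 8 in the TRA region (50%). Of the 10 loci, 8 carry no gene name, out of 19 tested loci without one. In the MHC, 3 of 9 tested loci without a name differed and 1 of 99 with a name. The share among loci without a name over the genome is not given here. Among the 106 tested loci with a name, 2 differed, the AABR07044362.4/AABR07044362.5/AABR07044362.6 locus in the MHC and Chtopl1 in the NKC.

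**Figure D1:**
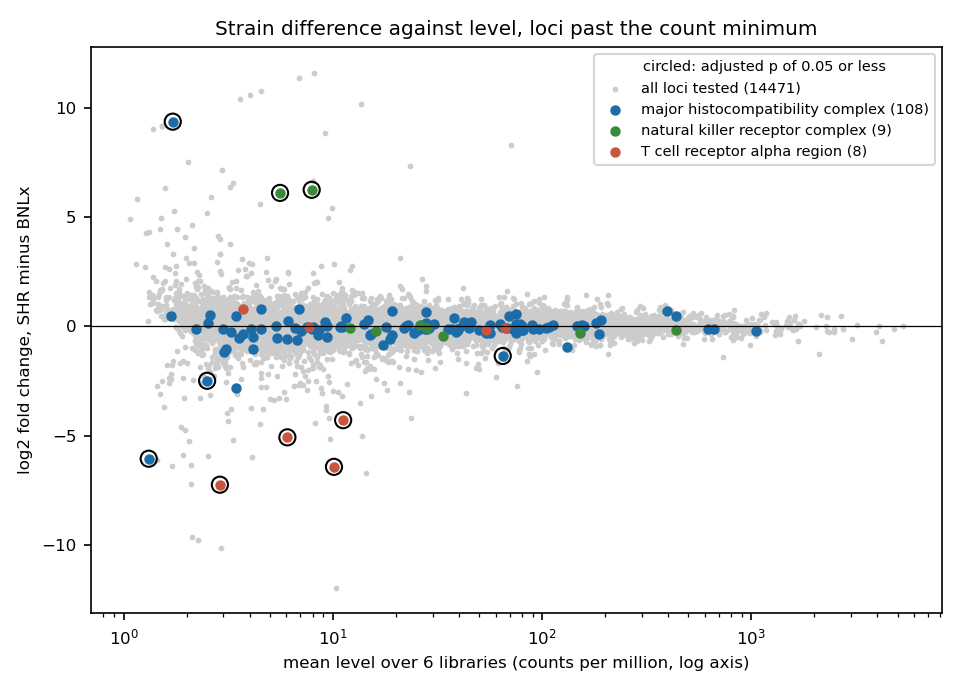
Log2 fold change of SHR over BNLx (vertical axis) against the mean CPM over 6 libraries (horizontal log axis) for each of 14471 loci tested, in grey, with the 108, 9 and 8 loci of the 3 regions in colour. Circles mark the 10 loci past an adjusted p of 0.05, and the 4 circled TRA loci all lie below 0.

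The medians of the log2 fold changes were -0.08 over the 108 MHC loci, -0.08 over the 9 NKC loci and -2.22 over the 8 TRA loci, against 0.00 over all loci. Summed over all member loci, the mean level of the MHC was 7414 ± 250.2 CPM in the BNLx libraries and 7284 ± 103 CPM in those of SHR (SD, n = 3). The NKC stood at 771 ± 33.4 and 696 ± 46.7 CPM. The TRA sum was 211 ± 11.1 CPM in BNLx and 133 ± 23.0 in SHR, and its SHR libraries (159, 119 and 119) all lay below those of BNLx (215, 198 and 219). These sums were not tested.

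The TRA region showed the widest strain difference of the 3 in assigned counts. None of its 29 loci carries a reference gene name, so the label rests on position alone, and none of the 10 listed T cell receptor gene names was found in the annotation. STRG.47194, a single exon of 8183 bases on the minus strand at chr15:31526788-31534970, stood at 17.9, 23.0 and 19.2 CPM in BNLx and at 0.348, 0.142 and 0.154 in SHR. The strains did not overlap, and the BNLx mean was 93.3 times that of SHR (log2 fold change -6.42, SE 0.39, adjusted p = 0.00462, edgeR). STRG.47193, with 2 exons on the same strand at chr15:31244559-31526733, stood at 10.3, 14.8 and 10.2 CPM in BNLx and at 0.377, 0.426 and 0.229 in SHR. Its log2 fold change was -5.07 (SE 0.33, adjusted p = 0.00462, edgeR). Both calls held without each library in turn. The sequence to which reads were assigned, whether rn6 or that of each strain, is not given in the sources used here. Its part in the low SHR counts of this region was not tested.

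STRG.47198 is the largest locus of the region, with 7 isoforms on the plus strand over chr15:31511291-32253249. Its levels were 19.7, 14.9 and 29.3 CPM in BNLx and 0.951, 0.919 and 1.42 in SHR (log2 fold change -4.29, SE 0.35, adjusted p = 0.00721, edgeR). Its exons overlap those of STRG.47194 on the other strand, and the library kit does not mark strand, so reads from the shared stretch cannot be told apart. The calls of STRG.47194 and STRG.47198 may therefore not be separate results. STRG.47181, at chr15:30551087-30559455, stood at 6.59, 8.07 and 2.58 CPM in BNLx, and the 3 SHR libraries held 3, 0 and 0 counts. The ratio of the summed counts was 171 (exact 95% interval 58.1 to 835, counting error only; adjusted p = 0.0229). STRG.47198 missed the threshold without BNLx replicate 1 or SHR replicate 2, and STRG.47181 missed it without any 1 library other than BNLx replicate 3. Over those fits the adjusted p ranged from 0.0134 to 0.073 for STRG.47198 and from 0.021 to 0.125 for STRG.47181, with log2 fold changes of -4.51 to -3.99 and -9.84 to -6.87.

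**Figure D2:**
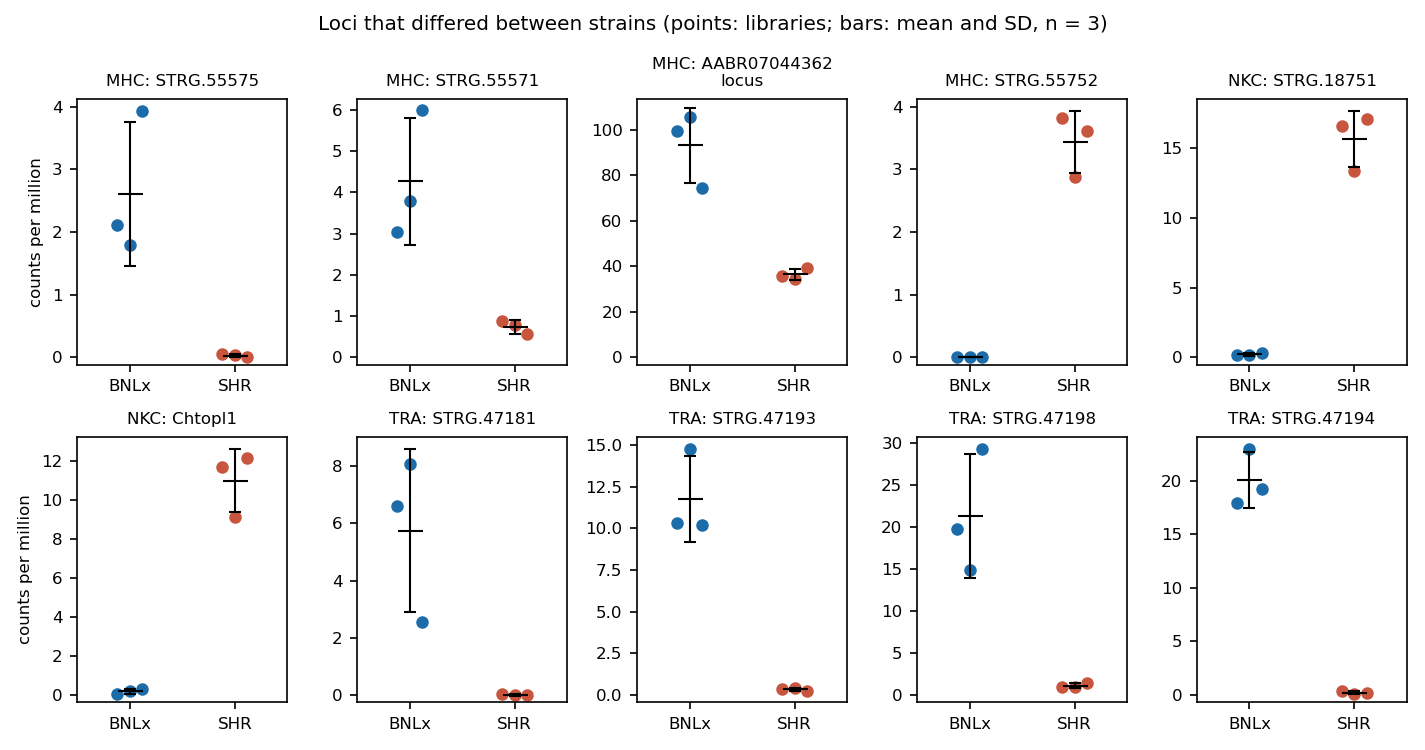
CPM (vertical axis, from 0) in each library for the 10 loci that differed, with BNLx in blue and SHR in red. Points are libraries and bars give the mean and SD (n = 3); in none of the 10 panels do the strains overlap.

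The same 4 loci supplied the isoforms that differed in this region, at an unadjusted p of 0.001 or less. They were 5 of 10 isoforms tested, all lower in SHR, against 1.0% of the 32348 isoforms tested over the genome (0.476% higher and 0.526% lower in SHR). From STRG.47198 the isoforms were STRG.47198.3 (4.45, 4.25 and 4.01 CPM in BNLx; 0.0329, 0 and 0 in SHR) and STRG.47198.5 (12.6, 8.05 and 18.5 CPM; 0.757, 0.924 and 1.28). STRG.47198.3 had 1 count in the SHR libraries together, and its count ratio of 365 has an exact 95% interval of 64.9 to 14480 (counting error only). The other 3 are the single isoforms of STRG.47194, STRG.47193 and STRG.47181. Without SHR replicate 1 or 2, STRG.47198.5 missed the threshold, and STRG.47181.1 missed it without any 1 of the 6 libraries (unadjusted p from 0.00112 to 0.00406).

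Loci under the count minimum lay along the same stretch. Of the 27 TRA loci above 0 in a library, 15 were lower in every SHR library than in any BNLx library and 0 were higher. The 15 include the 4 loci called above. Over all 23643 loci above 0, the shares were 7.92% lower and 8.88% higher. All 15 are among the 25 loci that start no later than STRG.47200 (chr15:32136672-32137387), an edge set after the values were seen. Summed over those 25, the level was 81.9, 89.0 and 78.7 CPM in BNLx and 10.2, 10.4 and 12.7 in SHR, with a mean in BNLx 7.48 times that in SHR. The 4 called loci are part of that sum, so it is not separate from their result. Examples below the minimum are STRG.47182 at 2.51, 3.57 and 0.924 CPM in BNLx and 0.0696, 0 and 0 in SHR, and STRG.47168 at 1.44, 0.518 and 0.414 in BNLx and 0 in each SHR library.

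Within the same stretch STRG.47180, a single exon at chr15:30543559-30550953 beside STRG.47181, stood at 7.98, 9.97 and 5.64 CPM in BNLx and 5.70, 7.56 and 9.51 in SHR. Its log2 fold change was -0.05 (SE 0.29, adjusted p = 0.974). The 2 most abundant loci of the region lie at its far end. STRG.47216 stood at 68.0 ± 18.8 CPM in BNLx and 65.1 ± 16.03 in SHR, and STRG.47215 at 56.7 ± 8.84 and 51.3 ± 12.2 (SD, n = 3). Neither differed (adjusted p = 0.963 and 0.861, edgeR). STRG.47209 ranged from 0 to 4.62 CPM in BNLx and from 0.371 to 7.29 in SHR, with BNLx replicate 3 and SHR replicate 1 the lowest of their strain.

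**Figure D3:**
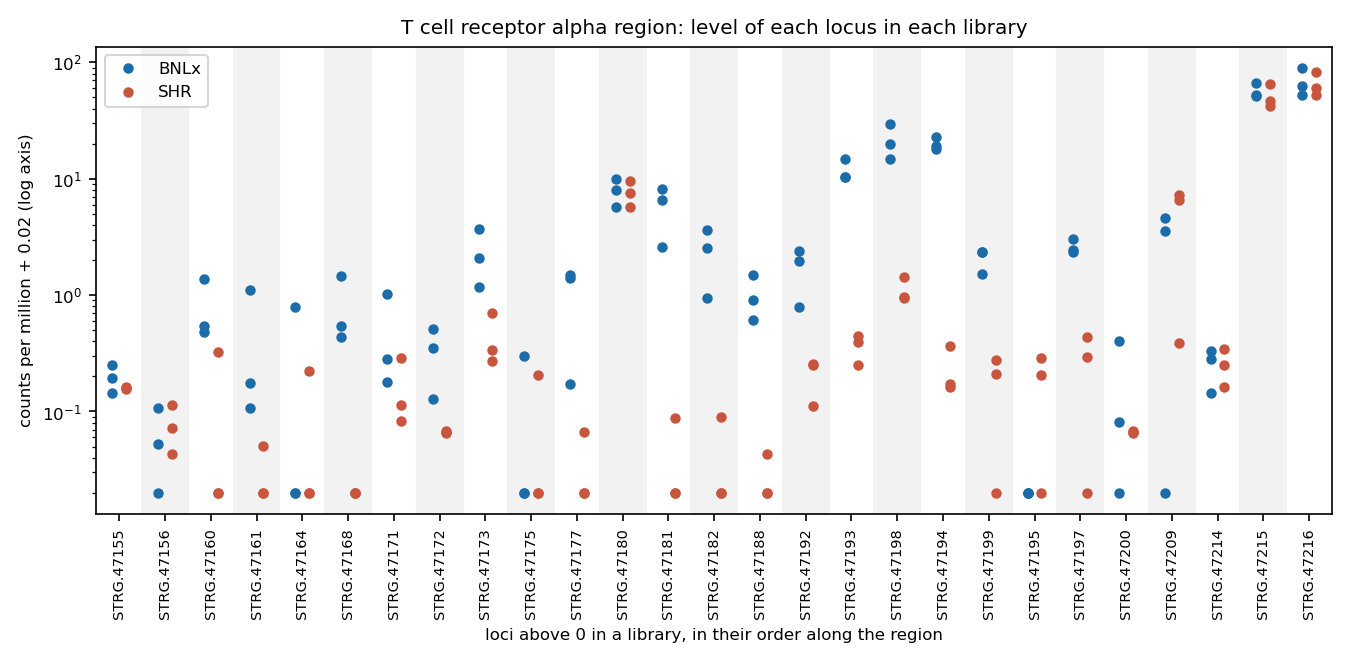
Level of each of the 27 TRA loci above 0 in a library (CPM + 0.02, log axis), in their order along the region, with BNLx in blue and SHR in red. BNLx points lie above SHR points at 15 loci, while STRG.47180, STRG.47215 and STRG.47216 overlap between strains.

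Of 11 listed T cell markers, 2 were found by name and the other 9 were not measured here. Cd2, a T cell adhesion molecule, stood at 0.0458 to 0.341 CPM over the 6 libraries. Cd4 is joined with Gpr162, P3h3 and Ptms in a locus that ranged from 454 to 695 CPM, so its own level is not known. None of the 8 natural killer cell, 5 B cell or 6 blood markers was found by name, so these cells were not analysed here. By name, 2 of 4 neuronal, 1 of 4 astrocyte and 3 of 5 oligodendrocyte markers were found. Those found were above 0 in every library, for example Snap25 at 874 to 2668 CPM.

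In the NKC, 2 of 9 tested loci differed, both from near 0 in BNLx to over 9 CPM in each SHR library. STRG.18751 has no name and 2 exons over chr4:162069836-162148919 on the minus strand. It stood at 0.158, 0.178 and 0.313 CPM in BNLx and 16.5, 13.4 and 17.0 in SHR, 72.3 times the BNLx mean (log2 fold change 6.25, SE 0.31, adjusted p = 0.0043, edgeR). Its call held without each library in turn.

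Chtopl1, whose symbol marks it as like the chromatin protein gene Chtop, lies at chr4:163118452-163119391. It stood at 0.0734, 0.207 and 0.328 CPM in BNLx and 11.7, 9.13 and 12.1 in SHR (log2 fold change 6.10, SE 0.50, adjusted p = 0.00721, edgeR). Of its 2 isoforms, STRG.18782.2, a single exon of 940 bases, was at 0 in every BNLx library and at 7.03, 6.30 and 9.09 CPM in SHR. That is at least 37.8-fold higher against a floor of 3 counts per library. The locus missed the threshold without BNLx replicate 2 or SHR replicate 2 (adjusted p up to 0.0529), and the isoform missed it without any 1 SHR library (unadjusted p up to 0.00166). Chtopl1 lies within the span of Clec12a, an inhibitory lectin-like receptor of myeloid cells, on the other strand, but their exons do not overlap. Its counts were not whole numbers in any of the 6 libraries, so reads were split between it and other features.

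Of 48 listed names of lectin-like receptors, 6 were found and 4 of those lie in the region, all below the count minimum. The other names have no named locus there, and 40 of the 60 NKC loci carry no name. Clec1a, a C-type lectin of endothelial and myeloid cells, was the highest at 1.52, 1.31 and 0.539 CPM in BNLx and 1.11, 2.32 and 3.39 in SHR. Olr1, a receptor for oxidized lipoprotein, ranged from 0.321 to 1.23 CPM over all libraries. Clec12a ranged from 0 to 0.539 and Clec2g from 0 to 0.174.

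The 3 most abundant NKC loci carry names of genes that are not lectin-like receptors. Gabarapl1, an autophagy protein of the GABARAP family, averaged 464 ± 12.01 CPM over the BNLx libraries and 408 ± 20.5 CPM over those of SHR (SD, n = 3). Fkbp4, a co-chaperone of steroid receptors, stood at 167 ± 9.43 and 136 ± 13.4 CPM. In both, every SHR library was lower than every BNLx library, as in 8.49% of all tested loci, and the adjusted p was 0.645 and 0.465. Nrip2, a nuclear receptor interacting protein, stood at 38.8 ± 23.2 and 28.7 ± 6.80 CPM, with 65.5 CPM in BNLx replicate 3 (adjusted p = 0.79). The NKC is the only region of the 3 with 3′ ends added by aptardi, in 21 of its 105 transcripts. Of these, 10 isoforms were tested. Neither of the 2 NKC isoforms that differed (8.70% of 23 tested, against 1.0% over the genome) was among them. The MHC and TRA regions held 0 such transcripts. Over the whole of chromosome 20 there were 0 as well, and it is 1 of 7 chromosomes of the annotation with 0. Chromosome 15, which holds the TRA region, had 327 among its 1754 transcripts.

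In the MHC, 4 of 108 tested loci differed, 1 higher and 3 lower in SHR. The AABR07044362.4/AABR07044362.5/AABR07044362.6 locus, STRG.55586, has 11 isoforms over chr20:3134704-3287073 on the minus strand, between class I genes. It stood at 99.4, 106 and 74.3 CPM in BNLx and 35.8, 34.3 and 39.3 in SHR (log2 fold change -1.35, SE 0.16, adjusted p = 0.02, edgeR). As TPM, a unit scaled to transcript length and library, the means were 68.9 and 40.6. On log2(TPM + 1) the log2 fold change was -0.75 and the locus missed the threshold (adjusted p = 0.053, limma). Its exons overlap those of 2 loci on the other strand, among them the class I locus RT1-N2/RT1-N3.

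The other 3 MHC loci have no name. STRG.55752, a single exon of 385 bases at chr20:4923952-4924336, was at 0 in every BNLx library and at 3.82, 2.88 and 3.61 CPM in SHR. That is at least 17.6-fold higher against a floor of 3 counts per library (adjusted p = 0.0179). It was the one locus of the 314 at 0 in all libraries of a strain with 50 or more counts in each library of the other, a pattern that 8 of 24744 loci (0.0323%) showed in this direction. STRG.55575, at chr20:2541222-2707177, stood at 2.11, 1.79 and 3.93 CPM in BNLx and at 2, 1 and 0 counts in SHR, after rounding. The count ratio was 70.7 (exact 95% interval 23.7 to 347, counting error only; adjusted p = 0.0179, edgeR). STRG.55571, at chr20:2704147-2705473, stood at 3.04, 3.78 and 6.00 CPM in BNLx and 0.876, 0.788 and 0.557 in SHR (log2 fold change -2.49, SE 0.38, adjusted p = 0.0491, edgeR). It lies within the span of STRG.55575 on the same strand, but their exons do not overlap. No count above 0 of STRG.55575 or STRG.55571 was a whole number, nor were those of STRG.55586 in 5 of 6 libraries. Reads of these loci were therefore split with other features. None of the 4 calls in the MHC held through all 6 fits that leave out 1 library. STRG.55571 missed the threshold in each. STRG.55586 and STRG.55575 missed it in all but the fit without BNLx replicate 3, and STRG.55752 in all but those without BNLx replicate 2 or 3, with adjusted p up to 0.254, 0.14, 0.119 and 0.126 in that order.

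Class I chains showed the clearest difference in isoforms, not in the sum over a locus. RT1-A1 and RT1-A2, classical class I genes, are joined in locus STRG.55712 on the plus strand. The summed locus stood at 82.4, 59.6 and 76.0 CPM in BNLx and 114, 59.7 and 57.9 in SHR, which overlapped (log2 fold change 0.09, SE 0.30, adjusted p = 0.953, edgeR). Isoform STRG.55712.3 stood at 1.75, 0.917 and 2.60 CPM in BNLx and 73.3, 42.3 and 38.3 in SHR, a mean 29.2 times that in BNLx (log2 fold change 4.85, SE 0.49, unadjusted p = 7.67e-05, adjusted p = 0.0302). It has 8 exons from chr20:5374985 to 5418015, of which 3 are exons of the RT1-A2 isoform and the 5 others are exons of the RT1-A1 isoform. The reference isoforms stood lower in SHR. STRG.55712.1, that of RT1-A2, had 22.7, 15.6 and 20.8 CPM in BNLx and 4.89, 1.68 and 2.32 in SHR (unadjusted p = 0.00125). STRG.55712.2, that of RT1-A1, had 58.0, 41.7 and 50.5 CPM in BNLx and 33.3, 12.8 and 14.9 in SHR (unadjusted p = 0.0198). These latter differences missed the threshold of 0.001.

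As shares of the locus, STRG.55712.3 made up 2.32% ± 0.921 in BNLx and 66.4% ± 4.002 in SHR (SD, n = 3). The usage test, which asks whether isoforms of a locus change in proportion, called this locus (adjusted p = 0.000131, edgeR's diffSpliceDGE). It called 3 of 60 MHC loci, 0 of 6 in the NKC and 0 of 2 in the TRA region, against 2.63% of 7742 loci over the genome. Reads of the RT1-A copies were split: all 32 values above 0 of the 6 isoforms were not whole numbers. RSEM, the program that assigned the reads, divides a read that fits several transcripts by estimated likelihood, so the shares are estimates. The sequence to which RSEM assigned the reads, whether rn6 or that of each strain, is not given in the sources used here. The part of this division of reads in the shift was not tested.

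**Figure D4:**
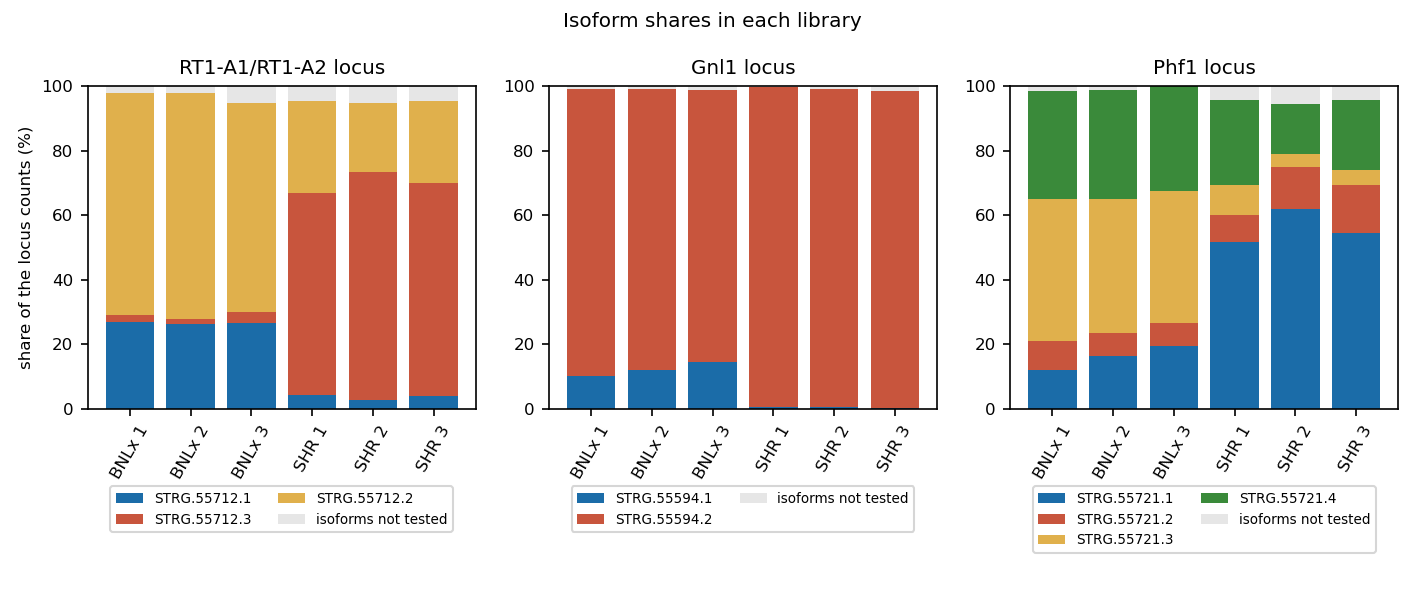
Share of the locus counts (%, stacked to 100) taken by each tested isoform in each of the 6 libraries, for the RT1-A1/RT1-A2, Gnl1 and Phf1 loci. STRG.55712.3 takes 62.7 to 70.6% in the SHR libraries and 1.54 to 3.33% in BNLx.

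The other class I isoform that differed was STRG.55590.8, of the RT1-S3/RT1-T24 locus, at 1.40, 1.24 and 1.28 CPM in BNLx and 7.60, 6.81 and 5.84 in SHR (log2 fold change 2.38, SE 0.28, unadjusted p = 0.000192, adjusted p = 0.0427). It missed the threshold without BNLx replicate 1 or 2 or SHR replicate 2 or 3 (unadjusted p up to 0.00157). The locus as a whole stood at 46.0 ± 5.12 and 43.3 ± 2.00 CPM. The RT1-CE3/RT1-CE4/RT1-CE5/RT1-CE7 locus stood at 20.4, 17.0 and 28.2 CPM in BNLx and 44.5, 27.4 and 30.6 in SHR (log2 fold change 0.64, SE 0.26, adjusted p = 0.479). Without BNLx replicate 3 and SHR replicate 1 this locus passed the threshold, where 28.8% of all loci did. Of 47 listed class I names 14 were found, in 7 tested loci of which 6 lie in the region, and 0 differed. Their median log2 fold change was -0.09. In the list of class I antigen processing, 0 of 8 tested loci differed. Tapbp, the peptide loading protein tapasin, in a locus with Rgl2 and Zbtb22, stood at 75.4 ± 5.74 and 81.6 ± 6.02 CPM, and Tap2, of the peptide transporter, at 8.14 ± 0.813 and 7.87 ± 2.21.

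Class II genes were low in both strains. Of 14 listed names 8 were found, 4 passed the minimum and 0 differed, with a median log2 fold change of -0.87. RT1-Ba, the alpha chain of the rat B molecule, stood at 9.17, 4.79 and 4.23 CPM in BNLx and 1.49, 0.284 and 0.687 in SHR, so the strains did not overlap (log2 fold change -2.84, SE 0.63, adjusted p = 0.156, edgeR). In the DESeq2 fit it passed (adjusted p = 0.00064), as it did without BNLx replicate 3 and SHR replicate 1 (-3.86, adjusted p = 0.00589). RT1-Da, the alpha chain of the D molecule, stood at 6.01, 4.62 and 2.00 CPM in BNLx and 3.57, 0.616 and 1.28 in SHR (log2 fold change -1.19, SE 0.70, adjusted p = 0.647). Without those 2 libraries it passed, at -2.49 (adjusted p = 0.00831, edgeR), in a fit where 28.8% of all loci did. For RT1-Ba and RT1-Da alike, those 2 libraries held the lowest BNLx and the highest SHR value. Leaving them out therefore widened the difference by construction. RT1-DMa, a chaperone chain that loads class II molecules, stood at 7.23 ± 4.64 and 4.90 ± 3.41 CPM (adjusted p = 0.825). RT1-Bb, below the minimum, stood at 3.69, 2.00 and 2.46 CPM in BNLx and 0.998, 0.521 and 0.321 in SHR.

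Microglial markers, the list of one cell type that can express class II genes in brain, were found for 6 of 12 names. Their summed level was 118 to 138 CPM in BNLx and 126 to 176 in SHR, and 0 of 6 differed. None was at 0. Of interferon response genes outside the regions, 5 were tested and 0 differed, with a median of 0.45 and summed levels of 106 to 111 and 121 to 132 CPM. The part of these cells in the class II values was not tested.

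**Figure D5:**
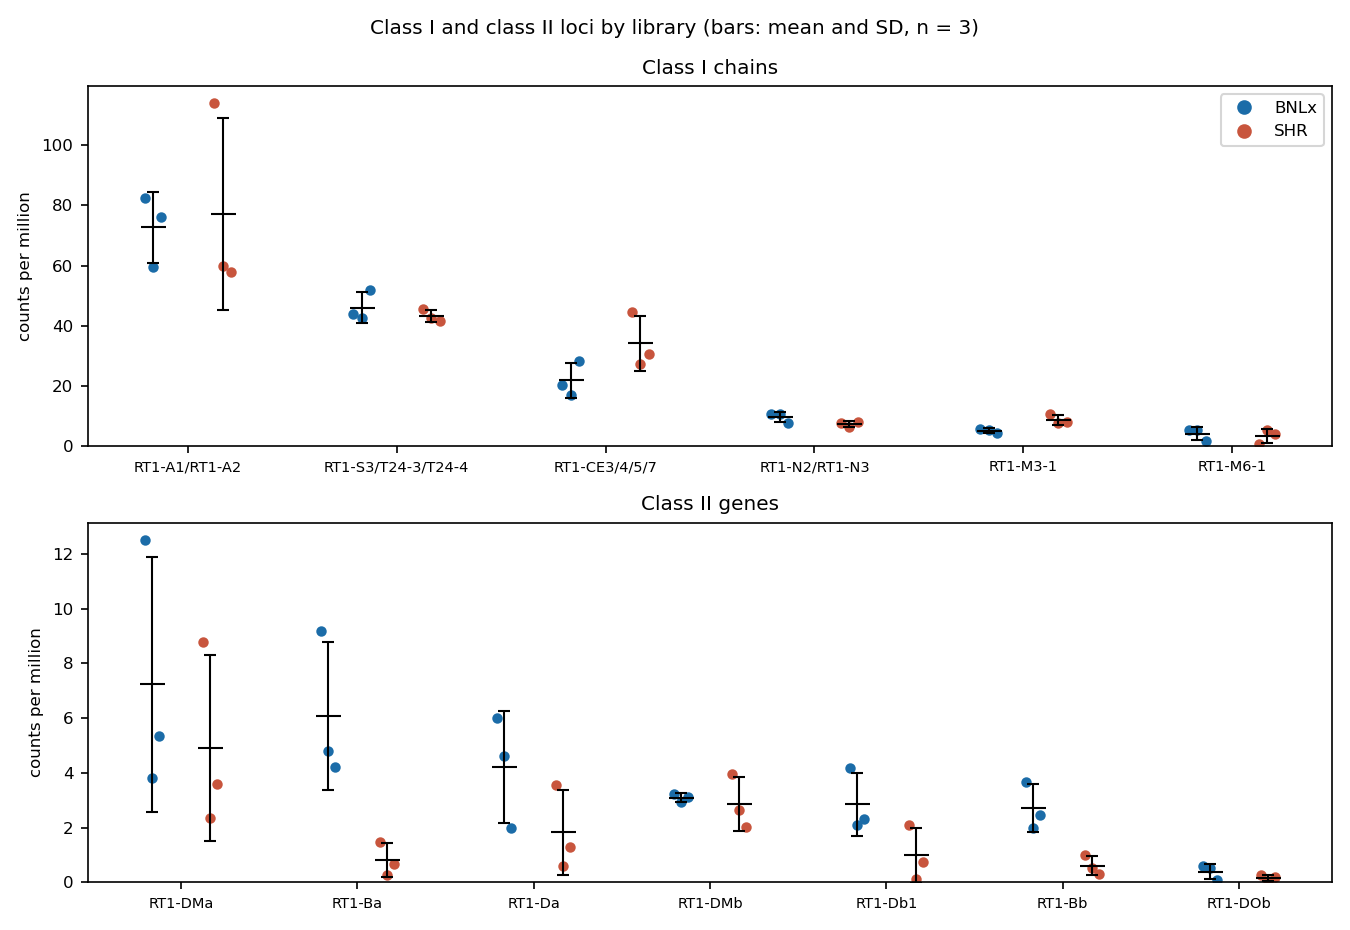
CPM (vertical axes, from 0) of the class I loci and the class II genes of the MHC with a mean of at least 0.05 CPM, in each library, with the mean and SD (n = 3). RT1-Ba separates the strains, at 4.23 to 9.17 CPM in BNLx and 0.284 to 1.49 in SHR, whereas RT1-A1/RT1-A2 overlap.

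Among the complement genes and their neighbours, 0 of 4 tested loci differed. C2 and Cfb, enzymes of complement activation, share a locus that stood at 13.1, 13.0 and 17.9 CPM in BNLx and 27.9, 22.6 and 20.8 in SHR (log2 fold change 0.70, SE 0.19, adjusted p = 0.271, edgeR). Skiv2l, an RNA helicase, stood at 32.5 ± 3.05 and 43.0 ± 1.52 CPM (adjusted p = 0.263). In both, each SHR library was above each BNLx library, as in 8.96% of all tested loci. Both passed without BNLx replicate 3 and SHR replicate 1, where 28.8% of all loci did. Nelfe, of the negative elongation factor, stood at 22.3 ± 1.86 and 22.3 ± 3.68 CPM. C4a was listed at 0 in every library. In the list of TNF and class III immune genes 0 of 3 tested loci differed, and Hspa1b, an inducible heat shock protein, stood at 4.16 ± 1.03 and 2.04 ± 1.08 CPM (adjusted p = 0.495).

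Outside the immune genes, 2 isoforms of named genes differed in the MHC. Gnl1, a GTP-binding protein, has a reference isoform STRG.55594.1 of 13 exons that stood at 12.2, 14.4 and 13.6 CPM in BNLx and 0.752, 0.706 and 0.306 in SHR (log2 fold change -4.46, SE 0.41, unadjusted p = 4.71e-05). Its share of the locus was 12.1% ± 2.19 in BNLx and 0.506% ± 0.2 in SHR, and the usage test called the locus (adjusted p = 0.000305). It shares 10 of its 13 exons with the main isoform, which ranged from 79.7 to 121 CPM over the 6 libraries. Phf1, a Polycomb protein, has a reference isoform STRG.55721.1 at 4.996, 6.64 and 8.15 CPM in BNLx and 23.5, 20.6 and 19.1 in SHR (log2 fold change 1.68, SE 0.25, unadjusted p = 0.000552). It missed the threshold without any 1 library other than BNLx replicate 3 (unadjusted p up to 0.00319), and the usage test did not call the locus (adjusted p = 0.0672). The calls for STRG.55594.1 and STRG.55712.3 held without each library in turn. The usage test also called the STRG.55586 locus (adjusted p = 0.0128). With the isoform of STRG.55752, the class I, Gnl1 and Phf1 isoforms made 5 of 262 tested MHC isoforms (1.91%), 4 higher and 1 lower in SHR. Over all isoforms tested the share was 1.0%, with 0.476% higher and 0.526% lower in SHR.

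The most abundant MHC loci serve brain and cell functions. Gabbr1, a subunit of the GABA-B receptor, stood at 1139 ± 295 CPM in BNLx and 975 ± 33.6 in SHR, with 1480 in BNLx replicate 3 (adjusted p = 0.775). The locus of Ddx39b, an RNA helicase, and Atp6v1g2, a proton pump subunit, stood at 686 ± 93.0 and 637 ± 35.6 CPM, and Tubb5, a beta tubulin, at 648 ± 60.7 and 589 ± 24.0. In the list of neural and myelin genes 0 of 12 tested loci differed. Mog, a myelin surface protein, stood at 184, 122 and 216 CPM in BNLx and 129, 81.2 and 57.2 in SHR (log2 fold change -0.96, SE 0.35, adjusted p = 0.411). The 3 oligodendrocyte markers found, Mog among them, summed to 3171 to 6520 CPM in BNLx and 1836 to 4129 in SHR.

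Counts that are not whole numbers show where reads were divided between features. At the locus level 41.2% of MHC values above 0, 24.9% of NKC values and 52.3% of TRA values differed from a whole number by more than 0.005, against 37.5% over all loci. At the isoform level the shares were 81.9%, 56.3% and 63.9%, against 79.0%. Exons overlapped those of another locus in 61 of 225 MHC loci, 4 of 60 NKC loci and 5 of 29 TRA loci, each on the other strand. Values of paralogs and of such pairs are therefore uncertain. RT1-Ba had whole counts in all 6 libraries.

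Leaving out BNLx replicate 3 and SHR replicate 1 together, all 10 loci kept their call. The number of member loci that differed rose to 44, with 35 in the MHC (32.4% of 108), 4 in the NKC and 5 in the TRA region, where 28.8% of all loci differed. Among the isoforms called, STRG.55590.8, STRG.55721.1, STRG.55752.1, STRG.18782.2, STRG.47198.3 and STRG.47198.5 missed their threshold in that fit (unadjusted p from 0.00113 to 0.00497, edgeR). Isoforms past an unadjusted p of 0.001 made up 2.92% of all isoforms in that fit and 3.63% with DESeq2.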

How the data were processed

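PolyA RNA of whole brain from 6 rats was sequenced as paired reads from an unstranded kit, with each library its own animal. Read alignment by the authors used HISAT2 and strain-specific versions of rn6. They assembled transcripts with StringTie 1.3.5 guided by Ensembl release 99, added 3′ ends with aptardi, and estimated abundances with RSEM. Deposited for every isoform and gene were unnormalized expected counts and TPM, which RSEM scales within each library. Other columns hold positions from the deposited annotation. Expected counts were rounded and fitted in R 4.3.3 with edgeR 4.0.16 (TMM, quasi-likelihood test, two-sided, BNLx as reference) over all features with at least 50 counts in 2 of 3 replicates of a strain. Loci and usage were called at a Benjamini-Hochberg adjusted p of 0.05, isoforms at an unadjusted p of 0.001. Alternatives were DESeq2 1.42.0, limma 3.58.1, other filters and left-out libraries. CPM uses TMM-scaled library sizes.

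The members, lists and tests were chosen with earlier results of these data known. Loci and isoforms past their threshold are named, with the 3 most abundant loci of each region and 2 or 3 abundant tested members of each list, and RT1-Bb and the TRA loci under the minimum were picked after their values were seen. The lane each library ran on is not given, so lane and strain may coincide. Scripts were tested on simulated data.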

Additional observations from a re-analysis of the deposited data

How the results depend on the processing

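Of the 22 loci and isoforms called, none changed direction under the 16 alternative fits. The 12 isoforms called became 24 with DESeq2 (16 in the MHC) and 23 with limma on log2(TPM + 1) or log2(TPM + 0.1) (16 and 15 in the MHC). At an adjusted p of 0.05, 9 isoforms passed, with 3 in the MHC, 2 in the NKC and 4 in the TRA region. DESeq2 called 7 of 108 MHC loci (6.48%). Over the genome it called 3.76% of loci and 3.63% of isoforms. For limma, the adjusted p, the usage settings, the block and the fits without 1 library, no share over all features is given. Those counts are therefore no measure of how far the members stand out. The usage test called 6 loci with a minimum of 10 counts, 8 without BNLx replicate 3 and SHR replicate 1, and 2 to 6 with each library left out. With both those libraries left out, 44 loci were called (35 in the MHC, 4 in the NKC, 5 in the TRA region), with 1 isoform in the NKC and 3 in the TRA region. With each library left out in turn, 3 to 9 loci (MHC 0 to 3, NKC 1 to 2, TRA 2 to 4) and 7 to 12 isoforms (MHC 2 to 7, NKC 1 to 2, TRA 3 to 4) were called; fewer samples entered those fits. With the replicate number as a replicate block, 0 loci (0 in each region; 6 of the 10 at least at an unadjusted p of 0.000459 or less) and 6 isoforms were called (2 in the MHC, 1 in the NKC, 3 in the TRA region). Same-numbered samples had correlations of -0.04, 0.32 and -0.20 across loci, so the numbers were not taken as pairs. The cause was not tested for the other changes.

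Among loci that were not called, log2 fold changes near 0 changed sign. Leaving out BNLx replicate 3 and SHR replicate 1 gave -0.29 for RT1-A1/RT1-A2 and -0.20 for Nelfe. Nelfe was -0.0022 with DESeq2 size factors, -0.00203 with DESeq2, -0.0072 with the block and -0.0017 with a minimum of 10 counts. On log2(TPM + 1) and log2(TPM + 0.1), Nfkbil1 was 0.17 and 0.18 and STRG.47216 was 0.0262 and 0.027, and Tap2 was 0.00013 on the first. With 1 or both of those libraries or any other 1 left out, values ranged from -0.31 to 0.26 for RT1-A1/RT1-A2, -0.14 to 0.0054 for RT1-S3, -0.39 to 0.0917 for Tap2, -1.52 to 0.10 for RT1-DMa, -0.20 to 0.0694 for Nelfe, -0.16 to 0.0609 for Nfkbil1, -0.34 to 0.00901 for Gabbr1, -0.69 to 0.17 for Nrip2 and -0.28 to 0.18 for STRG.47216. The sums of each region moved by less than the spread between replicates. With a value taken as whole within 0.05, the shares not whole were 36.2%, 18.8% and 39.2% for loci and 74.1%, 50.8% and 55.0% for isoforms in the MHC, NKC and TRA regions. A minimum of 50 counts left 189 of the 314 loci untested.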
